A study of Mus musculus with 12 samples.

Results

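A set of 10 genes that is widely read as a memory-like programme of T cells were followed through 12 RNA libraries of mouse splenic T cells. They are the calcium-binding proteins S100a4, S100a6, S100a10 and S100a11, the annexins Anxa1 and Anxa2, the scaffold protein Ahnak, the galectin Lgals1, the intermediate filament protein Vim and the hyaluronan receptor Cd44. The 10 genes were taken by symbol from 12918 loci with a symbol of their own, among 15125 loci listed in at least 1 library. The libraries form 4 groups of 3, which are KIKO activated, KI activated, KIKO naive and KI naive cells. Genotypes appear in the labels as KI and KIKO, with no altered gene, strain or age given, and the series is about proteasome dysfunction in T cells. Naive groups were unstimulated splenic naive CD4 T cells. Activated groups had 16 h on anti-CD3 and anti-CD28 beads, which engage the antigen receptor and the co-stimulator CD28. Only the titles of KIKO activated samples leave out CD4. Nothing states that the 3 libraries of a group came from separate mice, so p-values measure the spread between these libraries, which may be technical.

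Levels are in FPKM, a measure of fragments corrected for transcript length and library size, so read depth and counting error are unknown. A gene that a file does not list was taken as 0, which is no proof of silence. Libraries listed 9771 to 11102 loci. The CD4 T cell markers Cd4, Cd3d, Cd3e, Cd3g and Cd5 were listed in all 12 libraries, while Cd28 and Lck were listed in none. The marker Trac varied widely within groups. It stood at 99.5 and 4.52 FPKM in KI naive 1 and 2 and was not listed in KI naive 3. In KIKO naive 2 and 3 it stood at 3.79 and 78.6 FPKM, with no listing in KIKO naive 1. KIKO naive 2 and KIKO activated 2 stood apart by their myeloid transcripts. The 18 myeloid markers summed to 338 FPKM in KIKO naive 2 and 290 FPKM in KIKO activated 2, against 28.0 to 50.2 FPKM in the other 10 libraries. Leaving out Cst3, the sum was 312 FPKM in KIKO naive 2, 257 FPKM in KIKO activated 2 and 13.4 FPKM in KIKO activated 1, against 1.32 to 3.26 FPKM in the other 9. Results are therefore also given without these 2 libraries.

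S100 proteins are small EF-hand calcium sensors that work mostly by binding other proteins. S100a10 differs from its relatives in that it no longer binds calcium, and it forms a complex with the annexin Anxa2 at the inner face of the plasma membrane, to which the large scaffold Ahnak attaches. Annexins bind membrane phospholipids when calcium rises. Vimentin filaments, the galectin Lgals1 and the adhesion receptor Cd44 belong to the same set of transcripts that memory and effector T cells carry at higher levels than naive cells, and several of the 10 are also abundant in neutrophils and macrophages. In a bulk library, a change in the share of cells that express a gene and a change in RNA per cell cannot be told apart.

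S100a6, Anxa2, Ahnak and Vim passed the test as higher in KIKO cells both at rest and after activation, and their promoters are shown for that reason. The windows run from 250 bases before to 50 after the RefSeq gene start on GRCm38.p6, 5′ to 3′ on the gene's strand. They lie at chr3:90612644-90612943 for S100a6, chr9:69453433-69453732 for Anxa2, chr19:8989034-8989333 for Ahnak and chr2:13574061-13574360 for Vim, all on the plus strand. Capitals mark matches, on either strand, to the AP-1 motif TGANTCA, the GC box GGGCGG and the NF-kB motif.
S100a6: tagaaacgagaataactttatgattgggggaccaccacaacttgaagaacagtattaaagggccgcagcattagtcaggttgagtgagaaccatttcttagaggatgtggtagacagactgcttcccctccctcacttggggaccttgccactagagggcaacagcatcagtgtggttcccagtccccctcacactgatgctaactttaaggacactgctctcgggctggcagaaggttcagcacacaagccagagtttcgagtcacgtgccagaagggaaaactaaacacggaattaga
Anxa2: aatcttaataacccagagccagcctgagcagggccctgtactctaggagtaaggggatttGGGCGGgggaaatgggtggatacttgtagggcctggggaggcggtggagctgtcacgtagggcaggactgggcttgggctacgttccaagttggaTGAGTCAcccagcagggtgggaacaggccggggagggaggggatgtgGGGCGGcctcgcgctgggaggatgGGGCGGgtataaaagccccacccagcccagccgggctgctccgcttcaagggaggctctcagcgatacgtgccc
Ahnak: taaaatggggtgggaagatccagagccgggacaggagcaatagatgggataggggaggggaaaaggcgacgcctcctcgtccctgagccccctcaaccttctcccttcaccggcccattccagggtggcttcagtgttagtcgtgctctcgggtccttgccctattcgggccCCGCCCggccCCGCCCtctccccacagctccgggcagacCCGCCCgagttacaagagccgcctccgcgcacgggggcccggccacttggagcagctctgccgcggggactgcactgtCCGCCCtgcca
Vim: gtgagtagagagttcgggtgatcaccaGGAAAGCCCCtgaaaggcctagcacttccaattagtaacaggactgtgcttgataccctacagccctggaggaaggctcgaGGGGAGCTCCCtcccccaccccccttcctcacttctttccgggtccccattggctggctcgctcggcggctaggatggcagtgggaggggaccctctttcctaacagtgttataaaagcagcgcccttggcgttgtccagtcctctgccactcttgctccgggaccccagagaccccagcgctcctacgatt
A RefSeq promoter was at hand for 8 of the 10 genes. Anxa2 had 1 AP-1 match, beginning at base 156 of the window, and S100a11 had the only others, so 2 of 8 genes held the motif, against 7.81% of 32851 RefSeq promoters. The GC box was found in 4 of 8, which were S100a11, Anxa2, Ahnak and Cd44, against 35.7% of all promoters. Vim alone of the 8 held NF-kB matches, which 8.46% of promoters hold. None of the 8 held the T-box motif TCACACCT (1.28% of promoters) or a CArG box (1.63%). The S100a6 window held none of the motifs searched. These are letter matches, and the windows follow RefSeq starts rather than the starts listed in the files. GENCODE starts Vim at chr2:13573927 on GRCm38, before the whole window shown, so that window and its NF-kB matches lie inside the annotated gene.

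In naive cells, 5 of the 9 genes that could be tested were higher in KIKO than in KI cells and none was lower. They were S100a6, Anxa2, Ahnak, Lgals1 and Vim. Over all loci tested, 10.4% were called, 6.46% higher and 3.90% lower. In activated cells 6 of 9 were higher in KIKO cells and none was lower, namely S100a6, S100a10, Anxa2, Ahnak, Vim and Cd44. There, 40.0% of all loci were called, 20.7% higher and 19.3% lower, so a call in activated cells is far more common to begin with. The calls come from limma on log2(FPKM + 1), with p-values adjusted by Benjamini-Hochberg over all 9743 loci, at an adjusted p under 0.05. At an unadjusted p under 0.05, 6 genes were higher and 0 lower in each state. The median log2 difference of the 9 genes was 0.90 in naive and 0.73 in activated cells, against 0.047 and 0.04 for all loci. Loci tested had at least 1 FPKM in at least 3 libraries. Anxa1 did not reach that level, and S100a4 and S100a6 reached it only through KIKO libraries, so the counts and medians include genes that had to be high in KIKO to be tested. Without both KIKO libraries numbered 2, 5 genes were called higher in naive cells and 5 in activated cells, with S100a10 lost in activated cells. Without KIKO activated 1, S100a10 was also lost (0.42, adjusted p = 0.0942 by limma). In the fit without the libraries numbered 2, 8.87% of loci were called in naive and 43.1% in activated cells.

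**Figure D1:**
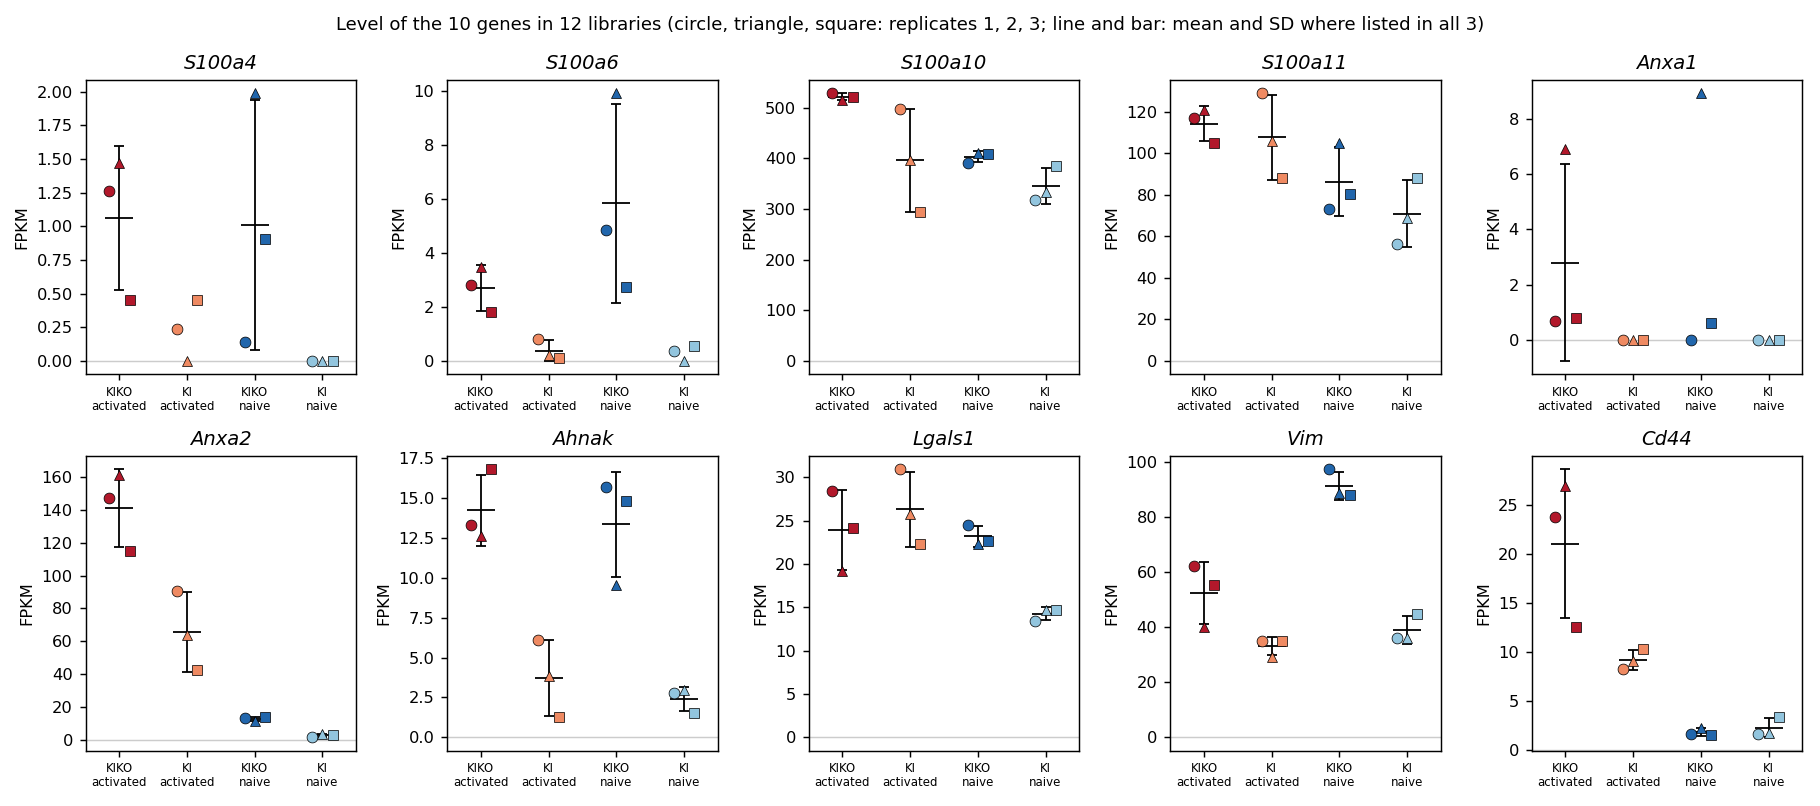
FPKM of each of the 10 genes in each library, by group, with replicates 1, 2 and 3 as circle, triangle and square, and the mean and SD as line and bar where all 3 libraries list the gene. Ahnak, S100a6, Anxa2 and Vim lie higher in all KIKO libraries than in the KI libraries of the same stimulation, and Anxa1 is high only in KIKO activated 2 and KIKO naive 2.

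Anxa2 and S100a10 form the annexin complex. The Anxa2 locus lies at chr9:69360892-69399077 on the plus strand of GRCm39, the build of the files, which also holds for the positions that follow. Anxa2 stood at 147, 161 and 115 FPKM in KIKO activated libraries, against 90.7, 63.8 and 42.3 FPKM in KI activated libraries. In naive cells it stood at 13.1, 11.6 and 13.8 FPKM in KIKO libraries, against 1.62, 3.29 and 3.24 FPKM in KI libraries. The groups did not overlap in either comparison, and neither did any other pair of the 4 groups. By limma, Anxa2 was higher in KIKO cells by 1.93 ± 0.25 (SE) on the log2 scale in naive cells (adjusted p = 0.000772), a 4.73-fold ratio of means. In activated cells the log2 difference was 1.14 ± 0.25 (adjusted p = 0.00355), a 2.15-fold ratio. Anxa2 used a second listed start for 11.8% to 13% of its starts in 5 of the 6 activated libraries, and KI activated 1 did not list that start. Its main start exon of 130 bp has a length that no first exon of Anxa2 in GENCODE M21 has.

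S100a10, the annexin's partner, was the most abundant of the 10 genes in all 4 groups. Its 2 listed events, at chr3:93462387-93471950, both have exon lengths found in GENCODE. It stood at 529, 516 and 521 FPKM in KIKO activated libraries, against 497, 397 and 294 FPKM in KI activated libraries. In naive cells the levels were 391, 410 and 409 FPKM in KIKO libraries, against 317, 334 and 385 FPKM in KI libraries. KIKO lay above KI without overlap in both states, by far less than for Anxa2. The activated difference was 0.43 ± 0.15 by limma (adjusted p = 0.0407), and it was called in only 10 of 26 alternative settings. Without KI activated 3, the lowest library, it was 0.23 (adjusted p = 0.165), and without both KIKO libraries numbered 2 it was 0.44 (adjusted p = 0.0776). The naive difference of 0.23 ± 0.15 did not pass (adjusted p = 0.374).

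Ahnak, a very large protein that scaffolds calcium channels and the annexin complex, lay higher in KIKO cells in both states. The locus spans chr19:8966605-9054278, with 279 listed events. It stood at 13.3, 12.6 and 16.8 FPKM in KIKO activated libraries, against 6.07, 3.83 and 1.28 FPKM in KI activated libraries. In naive cells the levels were 15.7, 9.57 and 14.8 FPKM in KIKO libraries, against 2.75, 2.95 and 1.53 FPKM in KI libraries. No KI library reached the lowest KIKO library. The log2 difference by limma was 2.07 ± 0.34 in naive cells (adjusted p = 0.00339) and 1.83 ± 0.34 in activated cells (adjusted p = 0.00118), and both calls held in all 25 alternative settings in which Ahnak could be tested. Both KIKO libraries numbered 2 were the lowest of their groups, and without them the differences were 2.28 in naive and 1.90 in activated cells. The 189-bp start exon has no GENCODE counterpart by length, and the transcript end was seldom listed. In all 12 libraries the level was close to the summed starts, which came almost wholly from that exon. The level thus rests mainly on that 1 exon.

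S100a6, which binds several annexins, was low throughout. The files list it by 1 event, a 345-bp first exon at chr3:90520189-90520533, which is one of the first exon lengths in GENCODE. No later exon and no transcript end is listed, so the level rests on that exon alone. Its levels were 2.81, 3.47 and 1.80 FPKM in KIKO activated libraries, against 0.808, 0.206 and 0.108 FPKM in KI activated libraries. At rest it stood at 4.85, 9.91 and 2.72 FPKM in KIKO libraries, against 0.344 and 0.561 FPKM in KI libraries 1 and 3 and no listing in KI naive 2. KIKO naive 2, the library with the most myeloid transcript, had the highest value of all. The log2 difference by limma was 2.27 ± 0.36 in naive cells (adjusted p = 0.0028) and 1.43 ± 0.36 in activated cells (adjusted p = 0.0073). Without both KIKO libraries numbered 2 these were 1.87 (adjusted p = 0.00788) and 1.28 (adjusted p = 0.00864). The size depends on the pseudocount, since with 0.1 the naive difference was 4.07 and with 5 it was 0.98.

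S100a4, a regulator of non-muscle myosin, was near the floor of the files. It was listed at 1.26, 1.47 and 0.456 FPKM in KIKO activated libraries, against 0.234 and 0.455 FPKM in KI activated 1 and 3. In naive cells it was listed at 0.137, 1.99 and 0.904 FPKM in KIKO libraries and in no KI library. KIKO was above KI without overlap in both states, but by limma neither difference passed, with 0.90 ± 0.35 in naive cells (adjusted p = 0.128) and 0.73 ± 0.35 in activated cells (adjusted p = 0.12). Without KIKO naive 1 the naive difference was 1.25 (adjusted p = 0.0434), and without both KIKO libraries numbered 2 it was 0.56 (adjusted p = 0.32). The start exon listed varied from library to library.

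S100a11, a partner of Anxa1 at membranes, was abundant and moved little with genotype. It lies at chr3:93427776-93433594, on the same chromosome as the other 3 S100 genes. Levels were 117, 121 and 105 FPKM in KIKO activated libraries, against 129, 106 and 88.0 FPKM in KI activated libraries. Naive levels were 73.4, 105 and 80.2 FPKM in KIKO libraries, against 56.2, 68.7 and 88.0 FPKM in KI libraries. The groups overlapped in both states, and by limma the differences of 0.28 ± 0.18 (adjusted p = 0.348) and 0.10 ± 0.18 (adjusted p = 0.681) did not pass.

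Anxa1, the glucocorticoid-induced annexin that is abundant in neutrophils, was listed in 5 libraries, all KIKO. It stood at 0.685, 6.91 and 0.792 FPKM in KIKO activated libraries 1, 2 and 3, and at 8.95 and 0.602 FPKM in KIKO naive libraries 2 and 3. It was not listed in KIKO naive 1 or in any of the 6 KI libraries. The 2 highest values are those of the libraries with myeloid transcripts, and the rest are below 1 FPKM. S100a9, a subunit of the neutrophil protein calprotectin, stood at 110 FPKM in KIKO naive 2 and 92.8 FPKM in KIKO activated 2, and reached 3.69 FPKM elsewhere. Anxa1 fell under the filter on low values. With no such filter, limma gave log2 differences of 1.33 ± 0.77 in naive cells (adjusted p = 0.419) and 1.53 ± 0.77 in activated cells (adjusted p = 0.203).

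**Figure D2:**
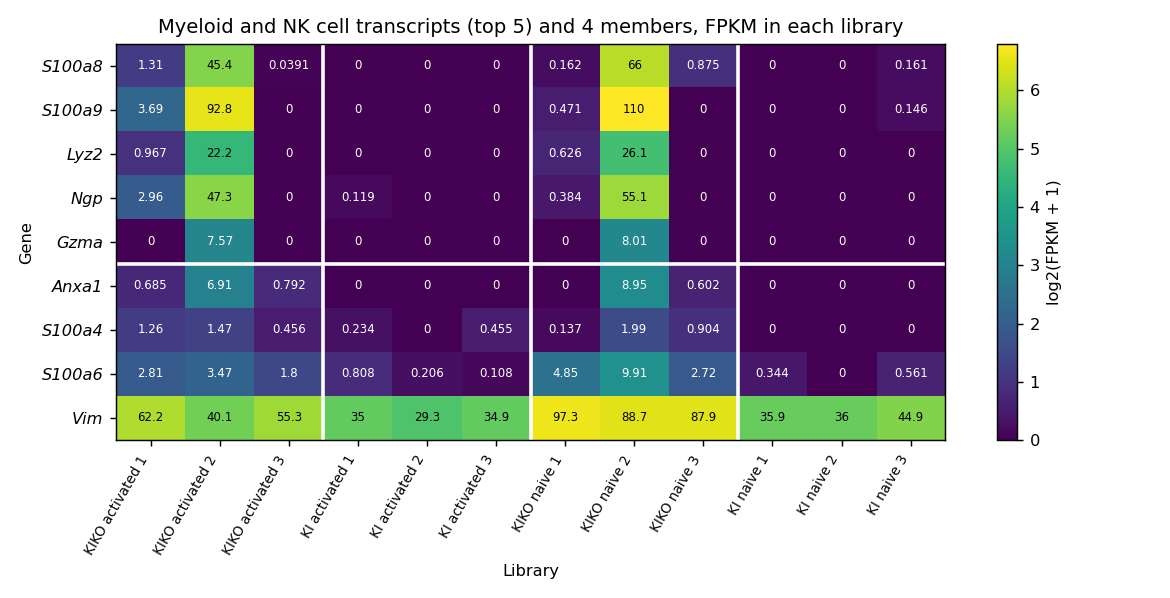
FPKM of 4 myeloid genes and the cytotoxic cell gene Gzma (upper rows) and of Anxa1, S100a4, S100a6 and Vim (lower rows) in each library, with colour on a log2(FPKM + 1) scale. Anxa1 and the upper rows peak in KIKO activated 2 and KIKO naive 2. S100a4 (1.47 and 1.99 FPKM) and S100a6 (3.47 and 9.91 FPKM) also have the highest value of their group in those libraries. Vim in those libraries is no higher than in the other libraries of their groups, apart from KIKO naive 3 at 87.9 FPKM.

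Vim encodes vimentin, an intermediate filament protein of the lymphocyte cytoskeleton. Its locus is chr2:13578738-13587637. Vim stood at 62.2, 40.1 and 55.3 FPKM in KIKO activated libraries, against 35.0, 29.3 and 34.9 FPKM in KI activated libraries. In naive cells it stood at 97.3, 88.7 and 87.9 FPKM in KIKO libraries, against 35.9, 36.0 and 44.9 FPKM in KI libraries. The naive KIKO group was the highest of the 4 and did not overlap any other. The log2 difference of KIKO from KI by limma was 1.22 ± 0.15 in naive cells (adjusted p = 0.000496) and 0.63 ± 0.15 in activated cells (adjusted p = 0.00525), and both were called in all 26 alternative settings. Without both KIKO libraries numbered 2 the differences were 1.24 and 0.81.

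Lgals1 encodes galectin-1, a secreted lectin that can dampen T cell responses. It stood at 28.4, 19.2 and 24.1 FPKM in KIKO activated libraries, against 30.9, 25.8 and 22.3 FPKM in KI activated libraries, which overlap. Among naive libraries it stood at 24.5, 22.3 and 22.7 FPKM in KIKO libraries, against 13.4, 14.7 and 14.7 FPKM in KI libraries, without overlap. By limma Lgals1 was higher in naive KIKO cells by 0.66 ± 0.14 (adjusted p = 0.0135), a 1.62-fold ratio of means. In activated cells the difference was -0.14 ± 0.14 (adjusted p = 0.475). Without KI naive 1 the naive difference was 0.62 (adjusted p = 0.0544). Its locus, chr15:78804358-78814665, opens with a 6647-bp start exon, whereas GENCODE first exons of Lgals1 are 79 and 80 bp. An unnamed locus on the opposite strand overlaps that exon, with at most 1.18 FPKM.

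Cd44 encodes the receptor by which T cells bind hyaluronan, and its level on the surface is a standard mark of antigen-experienced cells. Its locus is chr2:102641486-102731803 on the minus strand. It stood at 23.7, 26.9 and 12.5 FPKM in KIKO activated libraries, against 8.21, 9.07 and 10.3 FPKM in KI activated libraries. In naive cells it stood at 1.66, 2.27 and 1.5 FPKM in KIKO libraries, against 1.67, 1.76 and 3.37 FPKM in KI libraries. The activated groups did not overlap, though KIKO activated 3 came near the KI libraries, and the naive groups did overlap. By limma the difference in activated cells was 1.05 ± 0.26 (adjusted p = 0.00693), a 2.28-fold ratio of means, and without both KIKO libraries numbered 2 it was 0.84 (adjusted p = 0.0275). From summed transcript starts only it was 1.05 (adjusted p = 0.0817), the one of 26 settings in which the call was lost. In naive cells it was -0.19 ± 0.26 (adjusted p = 0.692). Cd44 was thus called in activated cells and not in naive cells, as was S100a10. The naive difference of Cd44 changed sign in 2 of 26 settings.

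Cd44 transcripts vary by a block of alternative exons in the middle of the gene. The files list 6 such exons as included in a transcript, between 90 and 207 bp long, and 5 of them have a length found among GENCODE Cd44 exons. Further exons, such as one of 120 bp, are listed only as skipped. The form with no variable exon, the standard form of blood cells, stood at 19.3, 22.7 and 12.2 FPKM in KIKO activated libraries, against 8.15, 8.50 and 8.30 FPKM in KI activated libraries. The standard form was thus higher in every KIKO activated library than in any KI activated library. It made up 84.1%, 85.7% and 97.9% of transcripts with the long end exon in KIKO activated libraries, against 100%, 100% and 80.6% in KI activated libraries, so the shares overlap. In naive libraries the share was 100% except in KI naive 2, at 85.9%. A form with 4 variable exons was listed at 1.68 FPKM in KIKO activated 1 and 3.08 FPKM in KIKO activated 2 and in no other library. A listing with 5 variable exons appeared in KIKO activated 2 alone, at 1.66 FPKM. In that library the 22.7, 3.08 and 1.66 FPKM together exceed the 26.5 FPKM of transcripts with the long end exon. The listings thus overlap and cannot all be separate forms. At so few libraries and such low values, no test was made of these forms.

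**Figure D3:**
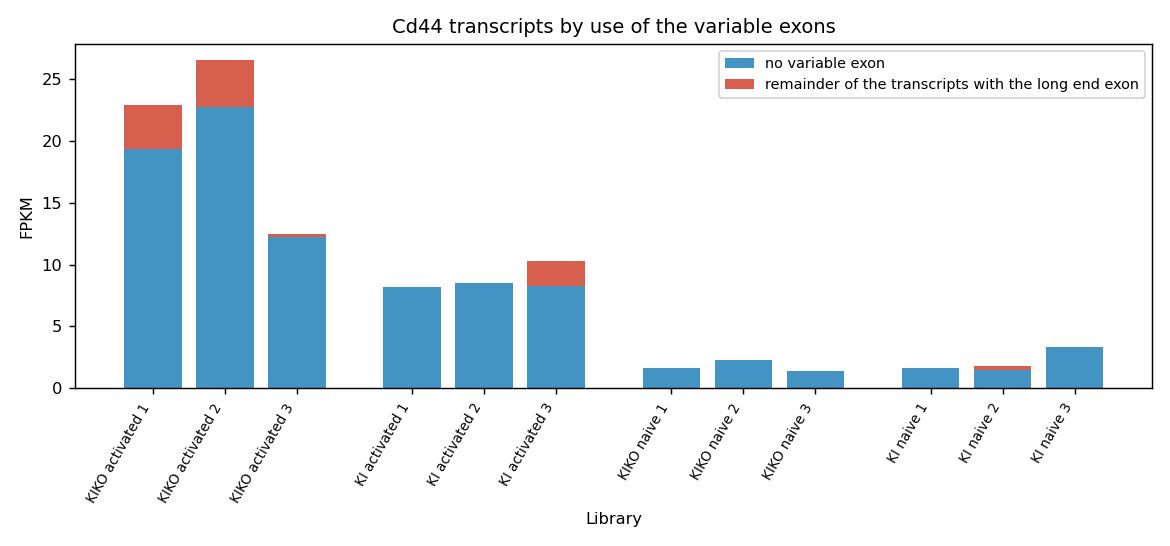
FPKM of Cd44 transcripts that end in the long end exon, split into the form with no variable exon (blue) and the remainder (red), as bars from 0 for each library. The blue part lies between 12.2 and 22.7 FPKM in KIKO activated libraries, above the 8.15 to 8.50 FPKM of KI activated libraries, and red parts appear in both genotypes.

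**Figure D4:**
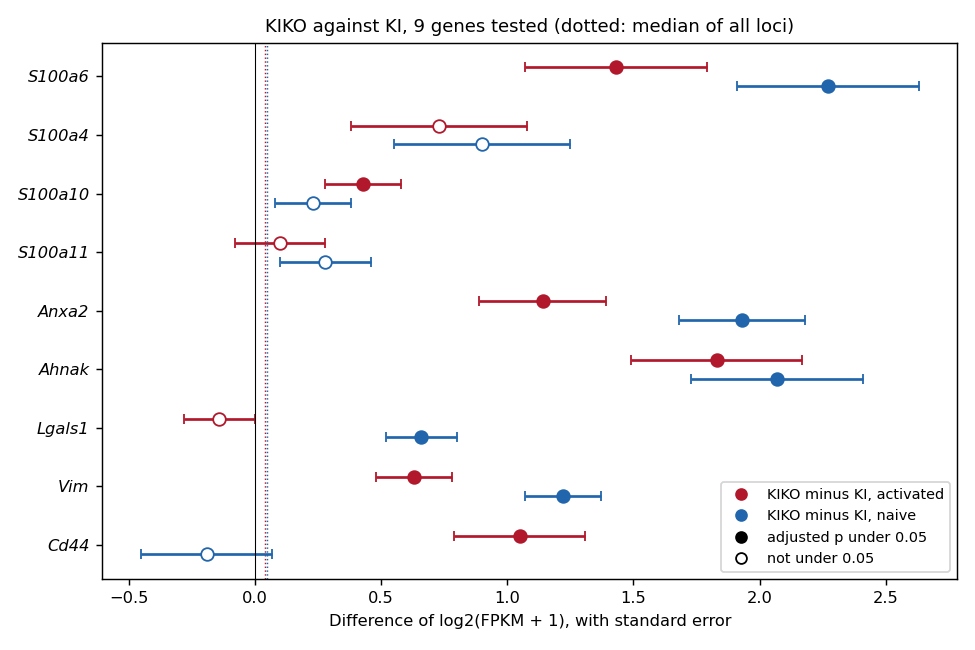
Log2 differences of KIKO minus KI, with standard errors, for the 9 genes tested, in activated (red) and naive (blue) cells. Filled points passed an adjusted p under 0.05 by limma, and dotted lines give the median of all 9743 loci, which lies near 0.

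Counted by overlap, 7 of the 9 genes lay higher in every KIKO library than in any KI library in naive cells, as did 19.6% of all loci tested. In activated cells it was also 7 of 9, against 27.9% of loci. Both counts include S100a4 and S100a6, which had to be high in KIKO libraries to be tested, so they cannot be read against those shares. In activated cells S100a4 separated only by 0.456 FPKM in KIKO activated 3 against 0.455 FPKM in KI activated 3, from different events. S100a4 and S100a10 are the genes that separated by library without a call in naive cells.

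In KIKO cells Anxa2 and Cd44 were higher after activation and Vim was lower, so 3 of 9 were called, where 47.3% of all loci were called, 25.1% higher and 22.2% lower. In KI cells S100a11, Anxa2, Lgals1 and Cd44 were higher after activation and none was lower, so 4 of 9 were called, where 61.7% of all loci were called, 32.2% higher and 29.5% lower. At an unadjusted p under 0.05 no gene was lower in KI cells either. The 9 include S100a4 and S100a6, which had to be high in KIKO libraries to be tested. Counts this small were not tested against those shares. The median log2 difference was 0.11 in KIKO and 0.35 in KI cells, against 0.004 and -0.006 for all loci.

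On the log2(FPKM + 1) scale Anxa2 was higher after activation by 3.35 ± 0.25 (adjusted p = 2.08e-06) in KIKO cells and 4.13 ± 0.25 (adjusted p = 1.18e-07) in KI cells, by limma. These are ratios of means of 11.0 and 24.2. Cd44 was higher after activation by 2.91 ± 0.26 (adjusted p = 6.56e-06) in KIKO cells and by 1.68 ± 0.26 (adjusted p = 0.000131) in KI cells, or 11.6-fold and 4.06-fold by means. Vim went the other way in KIKO cells, where its log2 difference was -0.81 ± 0.15 (adjusted p = 0.000898). In KI cells it was -0.23 ± 0.15 (adjusted p = 0.211), although every KI activated library lay below every KI naive library. Lgals1 was higher after activation in KI cells by 0.83 ± 0.14 (adjusted p = 0.000277), and its difference in KIKO cells was 0.03 ± 0.14 (adjusted p = 0.884). S100a11 was higher in KI cells by 0.60 ± 0.18 (adjusted p = 0.0122), and its difference in KIKO cells was 0.42 ± 0.18 (adjusted p = 0.074). The KI call of S100a11 was lost without KI naive 1, at 0.44 (adjusted p = 0.0603), without KI activated 1, at 0.46 (adjusted p = 0.056), and with quantile normalization, at 0.30 (adjusted p = 0.16).

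**Figure D5:**
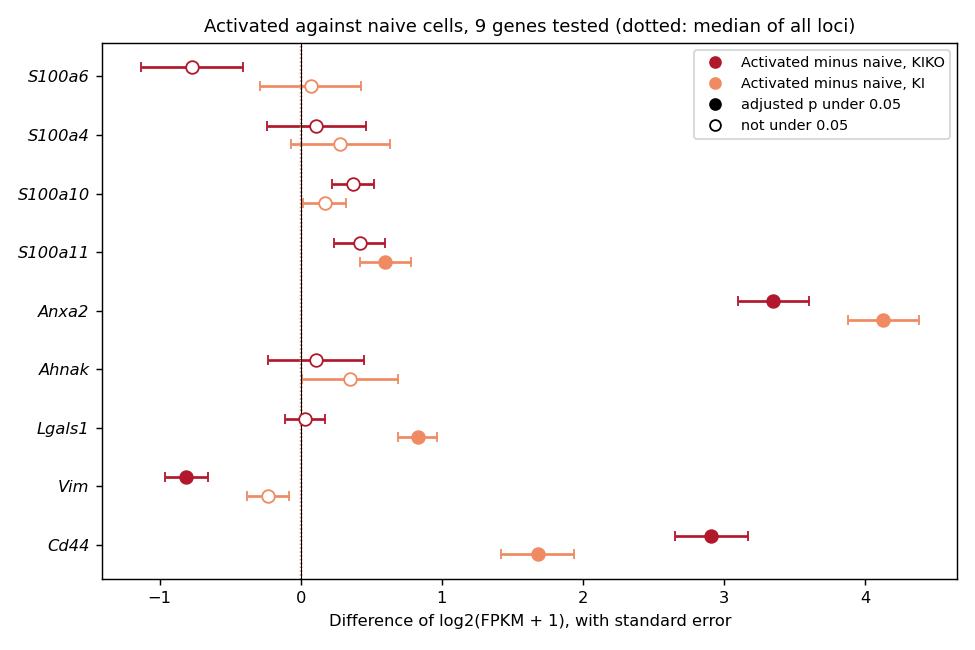
Log2 differences of activated minus naive, with standard errors, for the 9 genes tested, in KIKO (red) and KI (orange) cells. Anxa2 and Cd44 lie far to the right in both genotypes, Vim lies below 0 in both and is called in KIKO alone, and Lgals1 is called in KI alone.

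Ahnak, S100a4, S100a6 and S100a10 were not called with activation in either genotype. Ahnak differed by 0.11 ± 0.34 in KIKO cells and 0.35 ± 0.34 in KI cells, and S100a6 by -0.77 ± 0.36 and 0.07 ± 0.36. Single libraries decided some of these. Without KIKO naive 3 the S100a6 difference in KIKO cells was -1.14 (adjusted p = 0.0197 by limma). Without KI activated 3 the difference in KI cells was 0.80 for Ahnak (adjusted p = 0.0204) and 0.37 for S100a10 (adjusted p = 0.0215). KI activated 3 had the lowest value of its group for S100a10, S100a11, Anxa2, Ahnak, Lgals1 and S100a6. In KIKO cells S100a10, at 0.37, passed without KI activated 1 (adjusted p = 0.023) or KI activated 3 (adjusted p = 0.0143). S100a11 in KIKO cells was 0.57 without KIKO naive 2 (adjusted p = 0.0274).

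The interaction asks whether the change with activation differed between the genotypes. Among all loci 20.6% were called, 8.99% higher and 11.6% lower, where higher means that activated minus naive, with its sign, was greater in KIKO than in KI cells. Of the 9 genes, 1 was called higher and 1 lower. Lgals1 differed by -0.80 ± 0.20 by limma (adjusted p = 0.0157) and was called in all 26 alternative settings. Cd44 differed by 1.24 ± 0.37 (adjusted p = 0.0335), a call that held in 13 of 26 settings and not without both KIKO libraries numbered 2, at 1.14 (adjusted p = 0.0546). For Anxa2 the interaction was -0.79 ± 0.36 (adjusted p = 0.145), and without KI activated 3 it was -1.06 (adjusted p = 0.0426). For Vim it was -0.58 ± 0.21 (adjusted p = 0.0712), and it was -0.69 without KI naive 3 (adjusted p = 0.0486) and -0.71 without KIKO activated 1 (adjusted p = 0.0379). For the other 5 genes the adjusted p was between 0.275 and 0.848.

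The levels order the genes in each group. After S100a10, KIKO activated cells had Anxa2, S100a11 and Vim at 141 ± 23.8, 114 ± 8.29 and 52.5 ± 11.3 FPKM (SD, n = 3), and the libraries of Anxa2 and S100a11 overlap. KI activated cells had S100a11, Anxa2 and Vim at 107 ± 20.4, 65.6 ± 24.3 and 33.1 ± 3.29 FPKM, with S100a11 and Anxa2 overlapping. KIKO naive cells had Vim and S100a11 at 91.3 ± 5.24 and 86.1 ± 16.4 FPKM, which also overlap, and KI naive cells had S100a11 and Vim at 70.9 ± 16.0 and 38.9 ± 5.13 FPKM. Anxa2 held rank 2 in KIKO activated, 3 in KI activated, 6 in KIKO naive and 5 in KI naive cells.

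The relatives of these genes did not share one direction. Of a list of 12 genes, the other S100 genes and the S100P-binding protein gene S100pbp, 7 were listed and 4 tested, which were S100a8, S100a9, S100a13 and S100pbp, and none was called between KIKO and KI in either state by limma, nor had any an unadjusted p under 0.05. Without both KIKO libraries numbered 2, 1 was called lower in naive cells. S100a8 and S100a9, the neutrophil pair, had log2 differences of 2.32 ± 1.45 and 2.39 ± 1.68 in naive cells, carried by the libraries numbered 2. Of 5 other annexins tested, Anxa7, which aggregates granule membranes, was higher in naive KIKO cells by 1.29 ± 0.10 (adjusted p = 1.51e-05 by limma). In activated cells Anxa7 was higher by 2.22 ± 0.10 and Anxa4 by 1.25 ± 0.25, and Anxa6 was lower, at -0.97 ± 0.13. Anxa7 stood at 94.7, 100 and 86.3 FPKM in KIKO activated libraries, against 21.4, 18.7 and 17.8 FPKM in KI activated libraries. Of 5 tested genes in a list of other galectins and the galectin-binding protein gene Lgals3bp, none was called by limma, or had an unadjusted p under 0.05, in naive cells, and Lgals8 (1.00 ± 0.16) and Lgals3bp (0.91 ± 0.12) were higher in activated KIKO cells.

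Most called genes of the wider cytoskeleton were lower in KIKO cells, opposite to Vim. Of 31 tested genes of actin, tubulin and their membrane linkers, 1 was higher and 9 were lower in naive KIKO cells, where 6.46% of all loci were higher and 3.90% lower. In activated KIKO cells 5 were higher and 17 lower, where 20.7% of all loci were higher and 19.3% lower. Their median log2 difference was -0.21 in naive and -0.33 in activated cells. In naive cells the one higher gene was Lmna, which encodes the nuclear lamins A and C, at 1.35 ± 0.34 (adjusted p = 0.0284 by limma). The lower ones were led by Tuba1a (-0.87 ± 0.07), Tpm4 (-0.78 ± 0.09), Actg1 (-0.74 ± 0.18) and Actb (-0.59 ± 0.12). In activated cells Tagln2 (-1.28 ± 0.10), Tpm4 (-1.26 ± 0.09), Tuba1a (-1.18 ± 0.07) and Cfl1 (-0.98 ± 0.11) led the lower genes. The tubulin gene Tubb2a led the higher ones at 2.33 ± 0.11, followed by Tubb4b (0.61 ± 0.11), Flna (0.59 ± 0.19) and Actn1 (0.36 ± 0.10). Under 3 other scalings, the count of lower genes was 6 to 11 in naive and 12 to 17 in activated cells, and without both KIKO libraries numbered 2 it was 6 and 16.

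Of 14 tested genes in a list of other memory and effector T cell genes, none was higher and 1 was lower in naive KIKO cells by limma, Id2 at -0.77 ± 0.17, and 1 was higher and 2 lower at an unadjusted p under 0.05. Without both KIKO libraries numbered 2, none was called in naive cells, and 0 were higher and 2 lower at an unadjusted p under 0.05. In activated cells 7 were higher and 4 lower, where 20.7% of all loci were higher and 19.3% lower. Without both KIKO libraries numbered 2 the activated counts were 8 and 4. As given above, 10.4% of all loci were called in naive cells and 40.0% in activated cells, so the counts of the 2 states cannot be read against each other. The higher ones were led by Ly6a, which encodes the Sca-1 antigen (2.99 ± 0.26), the T-bet gene Tbx21 (1.97 ± 0.27), the interleukin-7 receptor gene Il7r (1.79 ± 0.51) and Gzmb, granzyme B (1.75 ± 0.51). Among the higher ones, Il7r, Il18r1, Prdm1 and Rora had activation differences below 0 in both genotypes. For Il7r these were -2.81 in KIKO and -4.77 in KI cells. By limma's interaction test, the change with activation differed between genotypes for Prdm1 (1.39, adjusted p = 0.00823) and Il18r1 (1.07, adjusted p = 0.0432). It was not called for Il7r (1.96, adjusted p = 0.0759) or Rora (0.54, adjusted p = 0.294). Tbx21 and Gzmb were above 0 with activation in both genotypes, and Ly6a in KIKO cells alone. Tbx21, Gzmb and Ccl5 reached 1 FPKM in KIKO libraries alone, so they had to be high in KIKO to be tested. The counts of this list therefore cannot be read against the shares of all loci. Tbx21 stood at 3.32, 4.97 and 2.25 FPKM in KIKO activated libraries, against 0.38 FPKM in KI activated 3 and no listing in KI activated 1 and 2. Gzmb stood at 1.02, 12.7 and 2.71 FPKM in KIKO activated libraries, against 0.402, 0.536 and 0.252 FPKM in KI activated libraries. Its highest value was in KIKO activated 2, where the NK cell markers summed to 12.3 FPKM, and the part of NK cells was not tested. The lower ones were Bhlhe40 (-1.73 ± 0.35), Id2 (-1.57 ± 0.17), Itgal (-1.04 ± 0.10) and Il2rb (-0.70 ± 0.17). Of 12 tested genes of naive T cells, Igfbp4 (1.04 ± 0.28) and Id3 (0.72 ± 0.13) were higher in naive KIKO cells and none was lower, though 3 were lower at an unadjusted p under 0.05 and 3 were called lower with median-ratio scaling. In activated KIKO cells Klf2 (1.02 ± 0.24) and Actn1 (0.36 ± 0.10), which is also in the cytoskeleton list, were higher. Id3 (-1.09 ± 0.13), the homing receptor gene Ccr7 (-0.85 ± 0.12) and Satb1 (-0.73 ± 0.10) were lower there. Of all loci, 6.46% were higher and 3.90% lower in naive cells, and 20.7% and 19.3% in activated cells.

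Markers of other cells moved with genotype beside these results, and their part in them was not tested. The CD8 chain gene Cd8b1 stood at 12.5, 16.1 and 12.6 FPKM in KIKO naive libraries, against 6.51, 7.38 and 8.12 FPKM in KI naive libraries. In activated cells the order was the other way, with 9.24, 8.39 and 10.0 FPKM in KIKO libraries, against 11.1, 10.9 and 12.8 FPKM in KI libraries. The interaction for Cd8b1 was -1.12 ± 0.18 (adjusted p = 0.00148 by limma). The partner chain gene Cd8a was listed in 1 naive library, KIKO naive 1, at 0.125 FPKM. Markers of regulatory T cells, 4 genes of which Il2ra and Ctla4 are also known as activation genes, summed to 2.01 to 4.48 FPKM in KIKO naive libraries, against 6.70 to 9.56 FPKM in KI naive libraries. In activated libraries that sum was 56.8 to 89.8 FPKM in KIKO, against 161 to 178 FPKM in KI cells. The CD4 T cell markers summed to 798 to 945 FPKM in KIKO naive libraries, against 1082 to 1277 FPKM in KI naive libraries, and to 477 to 704 FPKM in KIKO activated libraries, against 1015 to 1209 FPKM in KI activated libraries. The CD4 T cell sums include Trac, at 99.5 FPKM in KI naive 1 and 78.6 FPKM in KIKO naive 3. B cell markers never summed above 2.78 FPKM. NK cell markers summed to 17.3 FPKM in KIKO naive 2 and 12.3 FPKM in KIKO activated 2, against at most 5.28 FPKM elsewhere.

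Across the 12 libraries some pairs of the genes rose and fell together and others did not. As a description, Anxa2 and Cd44 had a Pearson r of 0.89 on the log2(FPKM + 1) scale, S100a11 and Anxa2 0.85 and S100a6 and Vim 0.84, while Vim and Cd44 had -0.34. The libraries share their group and stimulation, so these values carry no p. The loci most like Cd44 were Aaas (0.989), Pfkp (0.986) and Atf3 (0.983), and those most like Anxa2 were Smarcb1, Plk3 and Sh3bp2, each at 0.983. Stx1a was most like Vim (0.962), Ino80 and Pla2g6 most like Ahnak (0.94 each), Arl2 most like Lgals1 (0.959) and Dnajc16 most like S100a6 (0.956). Def6 was most like S100a10 (0.926), Ly6k most like S100a11 (0.931) and Arhgap11a most like S100a4 (0.929).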

How the data were processed

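RNA was measured in 12 libraries, 3 in each of 4 groups. Stranded TaKaRa libraries were made from poly(A) RNA selected out of 15 ng total RNA, per the labels' protocols. FastQC 0.11.9, cutadapt 2.9 and HISAT2 2.2.0 were used, per the submitters' processing notes. The quantification program is not given in the sources used. The authors deposited FPKM per transcript event (a start, an end, a skipped exon and the like), and events at 0 are not listed. The notes name GRCm39 and mm10; coordinates of the files are GRCm39. Exon lengths were compared with GENCODE M21.

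Duplicate events were dropped. A locus's level was the largest of its summed starts, summed ends and largest event, 0 where absent. Of several loci of a symbol the one with the highest mean was kept. Loci with at least 1 FPKM in at least 3 libraries (9743) were tested as log2(FPKM + 1) with limma 3.58.1 in R 4.3.3, using an intensity trend, 1 mean per group, two-sided tests and Benjamini-Hochberg adjustment within each of 5 comparisons. A log2 difference on this scale understates the change of low genes. On simulated data for KIKO naive against KI naive over 9743 loci, 87% of 200 loci changed by 1 log2 unit were recovered, and 5.43% of calls were unchanged loci. The changed loci were drawn only from those with a mean log2(FPKM + 1) above 2, with normal noise independent between loci and libraries. These rates therefore do not cover low genes such as S100a4 and S100a6, or deviations that genes share within a library. Named genes are the 10, the called members of each list with the largest differences (at most 4 each way), and up to 3 most similar loci per gene. Others are named where a limit turns on them. The genes and lists were chosen with earlier results of these data known. Alternatives covered pseudocount, filter, scaling, trend, replicate block, starts or ends alone, and libraries left out. Keeping the same loci without both KIKO libraries numbered 2, and the list counts under other scalings and without those libraries, were chosen after seeing the data.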

Additional observations from a re-analysis of the deposited data

Results flagged for a closer look

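For 2 of the genes the change with activation differed between the genotypes by limma's interaction test on log2(FPKM + 1), among 9743 loci tested. The difference for Lgals1 was -0.8 (SE 0.20, adjusted p = 0.0157), from activation differences of 0.03 in KIKO cells and 0.83 in KI cells, and over the alternatives it lay between -0.93 and -0.66 with an adjusted p of 0.00992 to 0.0401. The difference for Cd44 was 1.24 (SE 0.37, adjusted p = 0.0335), from activation differences of 2.91 in KIKO cells and 1.68 in KI cells. Over the alternatives it lay between 0.75 and 1.56 with an adjusted p of 0.00481 to 0.442. The lowest value came from summed transcript starts alone, a setting in which KI naive 2 lists no Cd44 start.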

How the results depend on the processing

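Across 27 alternative settings, 1143 values of single genes were recomputed: 1069 kept direction and side of the threshold, 34 lost the call, 17 gained it and 23 changed sign. Over all loci the replicate numbers paired the libraries weakly at most, since deviations of same-numbered libraries correlated at -0.03 to 0.12. Only between KI activated and KI naive did each library correlate best with its own number. KIKO activated 2 and KIKO naive 2 correlated at 0.09, against -0.06 for the best other number, and shared the myeloid transcripts. A common source of same-numbered libraries was not tested, and the main fits treated all libraries as unpaired. With a replicate block, 5 genes were called in naive and 5 in activated KIKO against KI cells, where S100a10 had an adjusted p of 0.0595, 3 and 4 with activation in KIKO and KI cells, and 2 in the interaction, where Vim (-0.58) replaced Cd44. With summed transcript ends only, calls over all loci were 553 (naive genotype), 2309 (activated genotype), 2746 (KIKO activation), 3583 (KI activation) and 1114 (interaction), and 3 of the genes were called in each genotype comparison, where Ahnak and S100a6 fell under the filter and S100a10, at 0.43 in activated cells, lost its call (adjusted p = 0.0528). In the interaction 1 gene was called with no filter, without both KIKO libraries numbered 2 (with or without the same loci) and from starts only. Leaving out each library gave 493 to 1166 loci and 4 to 6 genes (naive genotype), 3043 to 4254 and 5 to 6 (activated genotype), 3574 to 4620 and 3 to 4 (KIKO activation), 5336 to 6291 and 3 to 6 (KI activation), and 1363 to 2085 and 1 to 2 (interaction). Without KI naive 1, 2 or 3 the naive calls were 493, 557 and 531, against 1009 with all. The share of naive calls that were higher, 62.3%, was 44.2% under median-ratio scaling, 49.4% after quantile normalization and 81% for an equal sum, which moved the median of all loci to 0.131; in activated cells the share, 51.8%, was 64.9% with an equal sum, at a median of 0.15.

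Sign changes, none of a called value, were as follows. In naive KIKO against KI cells Cd44 was 0.30 from starts only, and -0.31 to 0.04 leaving out each library. In activated cells Lgals1 was 0.004 without both libraries numbered 2, and leaving out each library gave -0.27 to 0.004 for Lgals1 and -0.03 to 0.24 for S100a11. For KIKO activation Lgals1 was -0.03 with quantile normalization and -0.08 with an equal sum, and Ahnak was -0.03 without both libraries numbered 2. Leaving out each library there gave -0.1 to 0.17 for Lgals1, -0.1 to 0.23 for Ahnak and -0.25 to 0.34 for S100a4. For KI activation S100a10 was -0.1 with quantile normalization, and leaving out each library gave -0.01 to 0.37 for S100a10, -0.15 to 0.21 for S100a6 (-0.11 without KI naive 2) and -0.01 to 0.8 for Ahnak. In the interaction S100a4 was 0.02 without both libraries numbered 2 and from ends only, and leaving out each library gave -0.53 to 0.06 for S100a4 and -0.7 to 0.12 for Ahnak. The causes were not tested. FPKM give no depth, so low values such as those of S100a4 have no counting interval.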
